A study of Homo sapiens with 15 samples.

Results

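Most genes described here belong to 1 lipid pathway, in which ceramide is turned into sphingosine and sphingosine-1-phosphate (S1P). UGCG, which adds glucose to ceramide, uses the same lipid outside that route. Of 10 listed symbols, 9 had a probeset with a single gene symbol and are the members measured, among 18417 genes in all. They are the ceramidases ACER2, ACER3 and ASAH1, the S1P enzymes SPHK1, SGPP1 and SGPL1, the S1P exporter SPNS2, the S1P receptor S1PR1 and the glucosylceramide synthase UGCG. The list was built around ACER2, which had been chosen for its difference between exosome-treated and untreated cells, so the values of that comparison are a description. The tenth symbol, S1PR3, shares its only probeset with a second gene and could not be measured alone. Each measured member had 1 probeset, so the choice of the brightest one changed nothing.

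RNA was measured on Affymetrix whole-transcript arrays, 3 arrays in each of 5 groups. The groups were RNA of exosomes from JINB8 cells (CD47-), RNA of exosomes from Jurkat cells (JK, CD47+), human umbilical vein endothelial cells (HUVEC) kept for 6 h in EGM2 medium with JINB8 exosomes, HUVEC kept likewise with JK exosomes, and untreated HUVEC. Exosomes are small vesicles that cells release. Jurkat is a human T cell leukaemia line, and JINB8 is a mutant of it that lacks CD47, a surface receptor for thrombospondin-1. Both are single lines, exosomes were taken with a precipitation kit, and the labels do not say that replicates were separate cultures. The labels name no mock preparation for the untreated HUVEC. P-values therefore measure only the spread between these arrays, which may be technical, and the number of arrays limits the precision.

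Ceramidases cut the fatty acid from ceramide and leave sphingosine, which sphingosine kinases phosphorylate to S1P. S1P acts outside the cell on G protein-coupled receptors, and in endothelium the receptor S1PR1 stabilises junctions and restrains sprouting, while in lymphocytes it guides exit from lymphoid organs. Endothelial cells are a source of S1P in lymph through the transporter SPNS2.

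The arrays were not on 1 level. Array medians were 5.08 to 5.14 on the log2 scale in exosome RNA, 5.11 and 5.14 on average in JINB8-treated and JK-treated HUVEC and 6.91 to 7.03 in untreated HUVEC. The spread of signals across probesets was 1.49 to 1.55 (SD) in exosome RNA, against 2.18 to 2.23 in treated and 2.18 to 2.26 in untreated HUVEC. All 10 endothelial markers lay above the median gene in every HUVEC group, and 4 of 10 did in exosome RNA, while 8 of 12 T cell markers did so in exosome RNA and 1 of 12 in HUVEC. Summed log2 signals of the T cell markers were 50.2 to 51.2 in JINB8-treated HUVEC, 50.2 to 51.0 in JK-treated HUVEC and 71.1 to 74.1 in untreated HUVEC, whose whole level was higher. Mural cell and fibroblast markers summed to 51.2 to 51.6, 50.7 to 51.4 and 67.3 to 69.2 in the same groups. No marker is listed at 0 on these arrays, and without detection calls a low signal cannot be set against background. CD47 itself had 4.58, 4.67 and 4.94 in JINB8 exosome RNA, against 4.72, 4.69 and 4.72 in JK exosome RNA (log2 difference 0.02, 95% interval -0.19 to 0.22, limma adjusted p = 0.988). The CD47 signal thus did not separate the lines in vesicle RNA, and the groups are called by their labels.

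Promoter sequences are shown for ACER2, around which the list was built, and for ACER3 and UGCG, which were also higher in treated HUVEC relative to the shift between arrays. S1PR1 was higher on that scale as well, and its window is counted below but not printed. The printed sequences are the 250 bases before the start site on the plus strand, from RefSeq on GRCh38.p14, at chr9:19408759-19409008, chr11:76860668-76860917 and chr9:111896564-111896813. Capitals mark CACCC, the core of sites bound by Krüppel-like factors, on either strand (GGGTG on the other).
ACER2: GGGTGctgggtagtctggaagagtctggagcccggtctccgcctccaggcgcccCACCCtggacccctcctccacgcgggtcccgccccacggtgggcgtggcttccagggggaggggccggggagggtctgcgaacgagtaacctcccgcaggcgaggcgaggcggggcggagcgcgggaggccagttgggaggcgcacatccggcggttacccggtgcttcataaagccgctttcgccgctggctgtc
ACER3: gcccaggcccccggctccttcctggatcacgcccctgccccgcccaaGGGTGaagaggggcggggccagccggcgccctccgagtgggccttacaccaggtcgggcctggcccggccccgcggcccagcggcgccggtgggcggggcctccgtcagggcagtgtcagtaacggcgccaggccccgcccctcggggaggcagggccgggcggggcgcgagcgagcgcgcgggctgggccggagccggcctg
UGCG: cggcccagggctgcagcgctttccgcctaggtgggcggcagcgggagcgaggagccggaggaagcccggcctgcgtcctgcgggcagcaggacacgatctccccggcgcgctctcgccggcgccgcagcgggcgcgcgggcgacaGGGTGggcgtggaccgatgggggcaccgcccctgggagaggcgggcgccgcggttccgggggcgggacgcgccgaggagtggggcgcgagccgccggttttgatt

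RefSeq windows of 300 bases (250 before and 50 after the start) matched 6 of the 9 members, 8 windows in all. SPHK1 had several of them, and they are not independent genes. CACCC was in 8 of 8 windows, against 59.9% of 35116 windows of the same table. ACGTG, a form of the core of hypoxia response elements, was in 0 of 8 on either strand, against 21.4% of all windows. The other form of that core, GCGTG, was not counted over the windows. Read on either strand (CACGC on the other), it is present in each sequence printed above, for ACER2, ACER3 and UGCG. The windows without ACGTG are therefore not windows without that core. No member window held both CACCC and ACGTG. A match is a description and not a site, and the absence of a match says only that these letters are not in these windows. The 8 windows were 64.7% to 80.7% G and C. That share was not counted over all windows, so the motif shares are not matched for it.

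The first comparison asked how the genes differed in HUVEC after exosomes. As deposited, the median gene was lower by -1.71 (JINB8) and -1.68 (JK) on the log2 scale in treated than in untreated HUVEC. Because this shift touches nearly every gene, values were also quantile-normalized over the 9 HUVEC arrays, and changes on that scale are relative to the shift. The untreated arrays hold 1 group on a level of its own, so array level and treatment cannot be told apart. In bulk RNA, fewer cells of a type and less RNA per cell cannot be told apart either.

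ACER2, an alkaline ceramidase of the Golgi, was the member with the largest difference on the quantile scale, and the smallest in size but that of UGCG as deposited. Its deposited log2 signals were 8.56, 8.48 and 8.58 in JINB8-treated HUVEC and 8.66, 8.63 and 8.73 in JK-treated HUVEC, against 7.70, 7.62 and 7.72 in untreated HUVEC. The groups did not overlap, and the treated cells were higher even before any correction for the lower level of their arrays. The deposited difference was 0.86 with JINB8 and 1.00 with JK exosomes, when 34 and 30 of 18417 genes (0.185% and 0.163%) passed limma as higher on these values. After quantile normalization ACER2 had 9.05, 8.96 and 9.06 with JINB8 exosomes and 9.13, 9.18 and 9.21 with JK exosomes, against 6.50, 6.45 and 6.60 in untreated HUVEC. That is 2.51 ± 0.08 with JINB8 and 2.66 ± 0.08 with JK exosomes (log2 difference ± moderated SE, n = 3 per group), or 5.69-fold and 6.30-fold. ACER2 ranked 61st and 48th among all genes by size of difference. These are the values for which it was chosen, so they carry no test here.

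The other ceramidases differed less than ACER2 relative to the shift, and more than it as deposited. ACER3, an alkaline ceramidase of the endoplasmic reticulum and Golgi, had 9.45, 9.54 and 9.64 with JINB8 exosomes and 9.61, 9.53 and 9.47 with JK exosomes, against 9.24, 9.12 and 9.18 in untreated HUVEC on the quantile scale. Every treated array lay above every untreated one, by 0.36 ± 0.08 and 0.35 ± 0.08. ASAH1, the acid ceramidase of lysosomes, was lower by -0.27 ± 0.08 with JINB8 and -0.20 ± 0.08 with JK exosomes, a sign that turned with median centring (0.0995 and 0.10). On the deposited scale ACER3 differed by -1.08 and -1.12 and ASAH1 by -1.74 and -1.68, so ACER2 was the single ceramidase of the 3 with a higher deposited signal in treated cells.

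**Figure D1:**
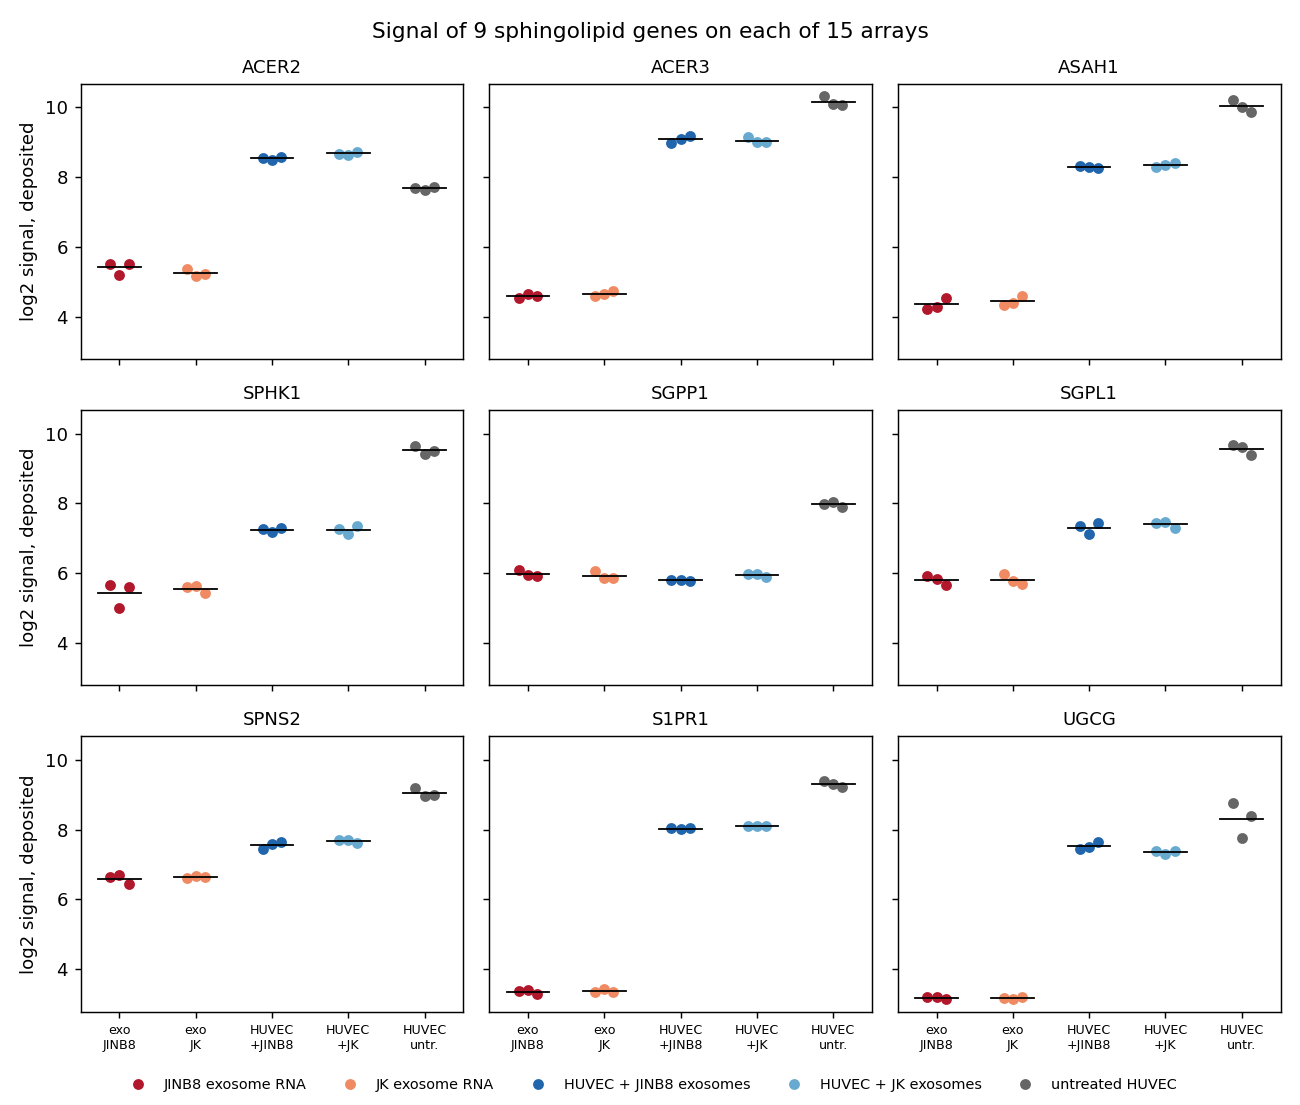
Deposited log2 signal (y axis) of the 9 measured genes on each of 15 arrays, 1 point an array and a line at the group mean, for exosome RNA, treated HUVEC and untreated HUVEC. ACER2 is higher in treated than in untreated HUVEC, the other 8 genes are lower, and S1PR1 and UGCG lie between 3.14 and 3.43 in exosome RNA.

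The member enzymes that make and break down S1P, SPHK1, SGPP1 and SGPL1, were lower in treated HUVEC on every scale tried. SPHK1, which phosphorylates sphingosine, had quantile-normalized signals of 7.80, 7.72 and 7.82 with JINB8 exosomes and 7.76, 7.67 and 7.86 with JK exosomes, against 8.53, 8.44 and 8.56 in untreated HUVEC. No treated array reached an untreated one, and the differences were -0.73 ± 0.08 and -0.75 ± 0.08. SGPL1, the lyase that splits S1P irreversibly, had 7.87, 7.67 and 7.94 with JINB8 exosomes and 7.92, 8.01 and 7.82 with JK exosomes, against 8.56, 8.64 and 8.46 in untreated HUVEC. It differed by -0.73 ± 0.10 and -0.64 ± 0.10, again without overlap. SGPP1, a phosphatase that returns S1P to sphingosine, was lower by -0.43 ± 0.07 with JINB8 and -0.34 ± 0.07 with JK exosomes.

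The receptor S1PR1 and UGCG lay on the other side of the shift, and the exporter SPNS2 near it. S1PR1 had 8.54, 8.51 and 8.54 with JINB8 exosomes and 8.60, 8.65 and 8.61 with JK exosomes, against 8.25, 8.30 and 8.29 in untreated HUVEC. Its replicates were close, the groups did not overlap, and it was higher by 0.25 ± 0.07 and 0.34 ± 0.07. SPNS2, the S1P exporter, differed by 0.06 ± 0.08 with JINB8 exosomes, where its arrays overlapped those of untreated HUVEC, and by 0.19 ± 0.08 with JK exosomes, where they did not. UGCG, which adds glucose to ceramide at the start of most glycosphingolipids, had 7.95, 8.02 and 8.14 with JINB8 exosomes and 7.87, 7.86 and 7.90 with JK exosomes, against 7.59, 6.62 and 7.39 in untreated HUVEC. The untreated arrays spread widely, and the difference of 0.84 ± 0.19 with JINB8 and 0.68 ± 0.19 with JK exosomes became 0.56 and 0.39 without untreated replicate 2. As deposited S1PR1, SPNS2 and UGCG were all lower in treated cells, at -1.27, -1.49 and -0.79 with JINB8 exosomes and -1.20, -1.37 and -0.95 with JK exosomes.

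On the quantile scale 8 of 9 members passed the threshold with JINB8 exosomes (4 higher and 4 lower, limma with Benjamini-Hochberg adjustment over all genes, threshold 0.05), where 49.3% of all genes did (26% higher and 23.3% lower). With JK exosomes 7 passed, 4 higher and 3 lower, where 48.6% of all genes did (26.2% higher and 22.4% lower). Arrays did not overlap for 8 of 9 members with JINB8 exosomes and 9 of 9 with JK exosomes, where 57.7% and 56.1% of all genes did not. ASAH1 and SPNS2 did not pass with JK exosomes, nor SPNS2 with JINB8 exosomes. With median centring SPNS2 passed as higher in both (0.34 with JINB8 and 0.41 with JK exosomes), and ASAH1 with JK exosomes passed as lower under cyclic loess (-0.25), without the 40% dimmest genes, with a variance trend and robust fitting, and without untreated replicate 3. The median difference over the 9 members was 0.06 and 0.19, against 0.02 over all genes in both comparisons. The comparisons share the untreated arrays, and since ACER2 and the list were chosen with them in view these counts are given for description.

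**Figure D2:**
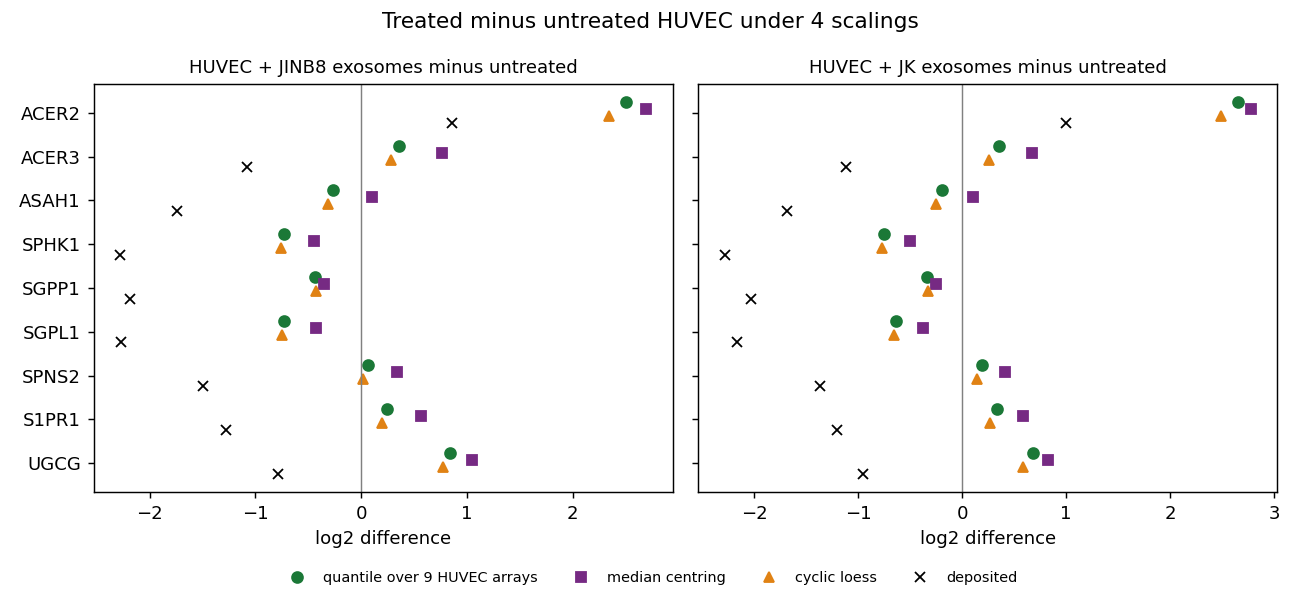
Log2 difference (x axis) of each gene between treated and untreated HUVEC, with JINB8 exosomes on the left and JK exosomes on the right, under 4 scalings. ACER2 is above 0 and SPHK1, SGPP1 and SGPL1 are below 0 under all 4, while ACER3, SPNS2, S1PR1 and UGCG are below 0 on the deposited values alone and ASAH1 is above 0 with median centring alone.

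The wider sphingolipid list held 52 further genes, 45 of them measured. With JINB8 exosomes 15 were higher and 9 lower after quantile normalization, and with JK exosomes 12 and 9 (the shares of all genes are those given above). With median centring the counts were 19 and 5 with JINB8 and 18 and 5 with JK exosomes. Over all 18417 genes they were then 7025 and 3450 with JINB8 and 6462 and 3587 with JK exosomes. On the deposited values all 45 were lower in both, where 18252 (JINB8) and 18289 (JK) of the 18417 genes were lower. On the quantile scale the largest difference was that of SPTSSA, a small subunit of serine palmitoyltransferase, which begins ceramide synthesis. It rose relative to the shift by 1.36 ± 0.11 with JINB8 exosomes and 1.48 ± 0.11 with JK exosomes. SPTSSA was named for the size of this difference, so these values are a description. As deposited it was lower in treated cells, by the smallest difference of the 45 (-0.57 and -0.40). CERT1, which carries ceramide to the Golgi, rose by 0.74 ± 0.10 and 0.63 ± 0.10. SPTLC2, a large subunit of serine palmitoyltransferase, rose by 0.57 ± 0.08 with JINB8 and 0.64 ± 0.08 with JK exosomes.

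Among genes that fell relative to the shift were PLPP2, a lipid phosphate phosphatase (-0.94 ± 0.10 with JINB8 and -0.79 ± 0.10 with JK exosomes), and the sphingomyelin synthase SGMS2 (-0.75 ± 0.08 and -0.79 ± 0.08). SMPD2, a neutral sphingomyelinase, fell with values of -0.76 ± 0.08 and -0.71 ± 0.08. ORMDL2, a regulator of serine palmitoyltransferase, had -0.90 ± 0.10 and -0.62 ± 0.10, the second of which did not pass with median centring (-0.27, adjusted p = 0.0544). PLPP3 had -0.61 ± 0.14 with JINB8 and -0.67 ± 0.14 with JK exosomes. With median centring it had -0.18 (limma adjusted p = 0.339) and -0.32 (adjusted p = 0.104). SMPD3, another neutral sphingomyelinase, rose by 0.73 ± 0.08 with JINB8 and 0.57 ± 0.08 with JK exosomes. The sphingomyelin synthase SGMS1 rose by 0.70 ± 0.10 and 0.58 ± 0.10.

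The second comparison set HUVEC with JINB8 exosomes directly against HUVEC with JK exosomes, on the deposited values, which had like medians in both. None of the 9 members passed limma, none had an unadjusted p under 0.05, and none passed under any of the alternatives tried. Over all genes 0 of 18417 passed (0%), and 1678 had an unadjusted p under 0.05. Replicate 3 of each group deviated from its group mean along with replicates 1 and 2 of the other group (correlations 0.23 to 0.33). The reason was not tested. The ACER2 arrays did not overlap, with the values given above, and the difference was -0.14 (95% interval -0.32 to 0.05, adjusted p = 0.665). SGPP1 had 5.79, 5.80 and 5.78 with JINB8 exosomes, against 5.96, 5.97 and 5.89 with JK exosomes, a difference of -0.15 (-0.33 to 0.03, adjusted p = 0.634). For S1PR1 it was -0.07 (-0.25 to 0.11) and for UGCG 0.17 (-0.23 to 0.56). These 4 members had arrays that did not overlap of the 9, where 17.5% of all genes had such arrays. The other 5 overlapped, with differences between -0.12 and 0.04.

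The third comparison set JINB8 against JK exosome RNA. Again 0 of 9 members passed limma, and 0 had an unadjusted p under 0.05, while 0.679% of all genes passed (0.668% higher and 0.0109% lower). ACER2 had 5.51, 5.20 and 5.52 in JINB8 exosome RNA, against 5.38, 5.17 and 5.23 in JK exosome RNA. The arrays overlapped, and the difference was 0.15 (95% interval -0.07 to 0.37, adjusted p = 0.787). SPHK1 had the widest interval, -0.45 to 0.18, with JINB8 replicate 2 the lowest of the 6 arrays. All 9 members overlapped between the lines, where 12.9% of all genes did not. The difference between lines was also compared between vesicle RNA and recipient HUVEC. For ACER2 it was 0.15 in vesicle RNA and -0.14 in HUVEC, of opposite sign, and the contrast of 0.29 (0.01 to 0.57, unadjusted p = 0.0437 in limma) did not pass after adjustment over all genes (adjusted p = 0.396), and 0 of 9 members did, where 0.787% of all genes passed (0.684% higher and 0.103% lower).

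**Figure D3:**
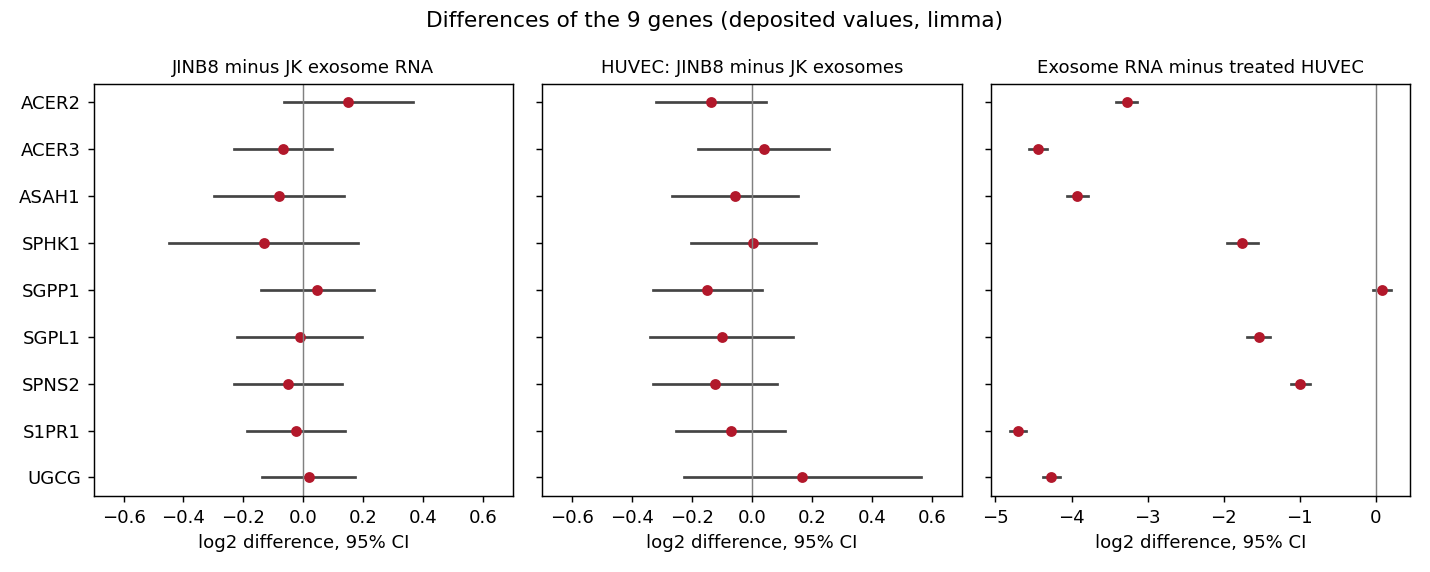
Log2 differences of the 9 genes with 95% intervals (limma, deposited values) between JINB8 and JK exosome RNA, between HUVEC with JINB8 and with JK exosomes, and between exosome RNA and treated HUVEC. The intervals of the first 2 panels all include 0, and in the third panel, drawn on a wider axis, 8 genes lie below 0 and SGPP1 does not differ past the threshold.

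The fourth comparison asked where the genes had more signal, in T cell vesicle RNA or in the treated HUVEC, over 12 arrays whose medians were alike. Of the 9 members 8 fell in exosome RNA relative to treated HUVEC and 0 rose, where 94.9% of all genes passed in either direction, 45.3% as higher and 49.7% as lower. Arrays did not overlap for 8 of 9 members, where 88.4% of all genes did not. The members' median difference was -3.27, against -0.13 over all genes. Without the 40% dimmest genes 3011 genes were higher and 7567 lower, a split that leans the way the members do. That filter used each gene's mean over these same 12 arrays, so the split is not independent of the comparison. The narrower spread of signals on the exosome arrays lies beside all these values. Quantile normalization over the 12 arrays, which gives all arrays 1 spread, left 7 members lower and 2 higher and moved the median of all genes to 0.225 (0.287 with median centring).

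S1PR1 had the largest measured difference on the deposited values. It had 3.37, 3.40 and 3.27 in JINB8 and 3.36, 3.43 and 3.34 in JK exosome RNA, against 8.04, 8.02 and 8.03 in JINB8-treated and 8.10, 8.10 and 8.11 in JK-treated HUVEC. The difference was -4.70 ± 0.05 (limma adjusted p = 1.34e-20), and in exosome RNA the gene lay in the lowest 5.8% of genes on every array. ACER3 differed by -4.44 ± 0.06, UGCG by -4.27 ± 0.05 and ASAH1 by -3.92 ± 0.07. UGCG lay in the lowest 3.3% of genes in exosome RNA, at 3.14 to 3.21. No detection call shows that S1PR1 or UGCG was above background there, so the size of these differences may be understated. ACER2 differed by -3.27 ± 0.07, 9.67-fold lower in vesicle RNA than in treated cells (-1.91 with quantile normalization). It was chosen for its level on these same treated arrays, so this difference carries no test here. After quantile normalization over all 15 arrays ACER2 had means of 6.16 and 5.91 in JINB8 and JK exosome RNA, against 6.05 in untreated HUVEC.

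SPHK1 and SGPL1 differed by -1.75 ± 0.10 and -1.54 ± 0.07, and by -0.67 and -0.20 with quantile normalization. SPNS2 had 6.64, 6.70 and 6.45 in JINB8 and 6.61, 6.68 and 6.65 in JK exosome RNA, against 7.43, 7.58 and 7.64 in JINB8-treated and 7.69, 7.71 and 7.62 in JK-treated HUVEC. Its difference of -0.99 ± 0.06 turned to 0.97 with quantile normalization. By rank it lay higher in exosome RNA, at percentiles 90 to 94.5 of the genes on an array, against 77.7 to 82 in treated HUVEC. SGPP1 overlapped between vesicles and cells, at 0.09 ± 0.06 (adjusted p = 0.158), and passed as higher in vesicle RNA with quantile normalization (1.09) and median centring (0.50). The direction of SPNS2 and the call of SGPP1 therefore rest on the scaling, and the other 7 members passed as lower under the 3 scalings tried.

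Of the 45 wider genes 30 fell and 15 rose in exosome RNA, 26 and 17 with quantile normalization. The shares over all genes are given above for the deposited values. Over all genes 7577 were lower and 9496 higher with quantile normalization, and 8141 lower and 9543 higher with median centring. DEGS1, the desaturase that completes ceramide synthesis, differed by -6.03 ± 0.05, the saposin precursor PSAP by -5.42 ± 0.05 and the lactosylceramide synthase B4GALT5 was 34.4-fold lower. CERS2, which makes very long chain ceramides, differed by -4.54 ± 0.06 and SPTLC2 by -3.95 ± 0.05. PLPP1, ORMDL2 and SMPD4 differed by -4.19 ± 0.20, -3.56 ± 0.06 and -3.42 ± 0.06. These 8 were named for the size of their differences, and each had a limma adjusted p of 2.93e-12 or less. With quantile normalization all 8 were still lower, and those that moved by over 1.5 times were PSAP (-2.98), B4GALT5 (-3.39), CERS2 (-2.83) and ORMDL2 (-2.35). Of 10 wider genes of S1P turnover and signalling 7 rose and 3 fell under each of 3 scalings. This list leaves out the S1P genes among the members, of which SPHK1, SGPL1, SPNS2 and S1PR1 fell on the deposited values and SGPP1 did not pass. Of 15 genes of ceramide synthesis 11 fell as deposited, 10 with median centring and 9 with quantile normalization. Of 10 genes of glycosphingolipids and ceramide transfer 9 fell under each scaling. Among the 7, named after their values were seen, were the S1P phosphatase SGPP2 (2.21 ± 0.08) and S1PR4, an S1P receptor of lymphocytes (1.43 ± 0.08). S1PR2 and S1PR5 had 1.07 ± 0.07 and 0.94 ± 0.05, and 2.69 and 2.76 with quantile normalization. Whether the 5 roles differ from each other was not tested.

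**Figure D4:**
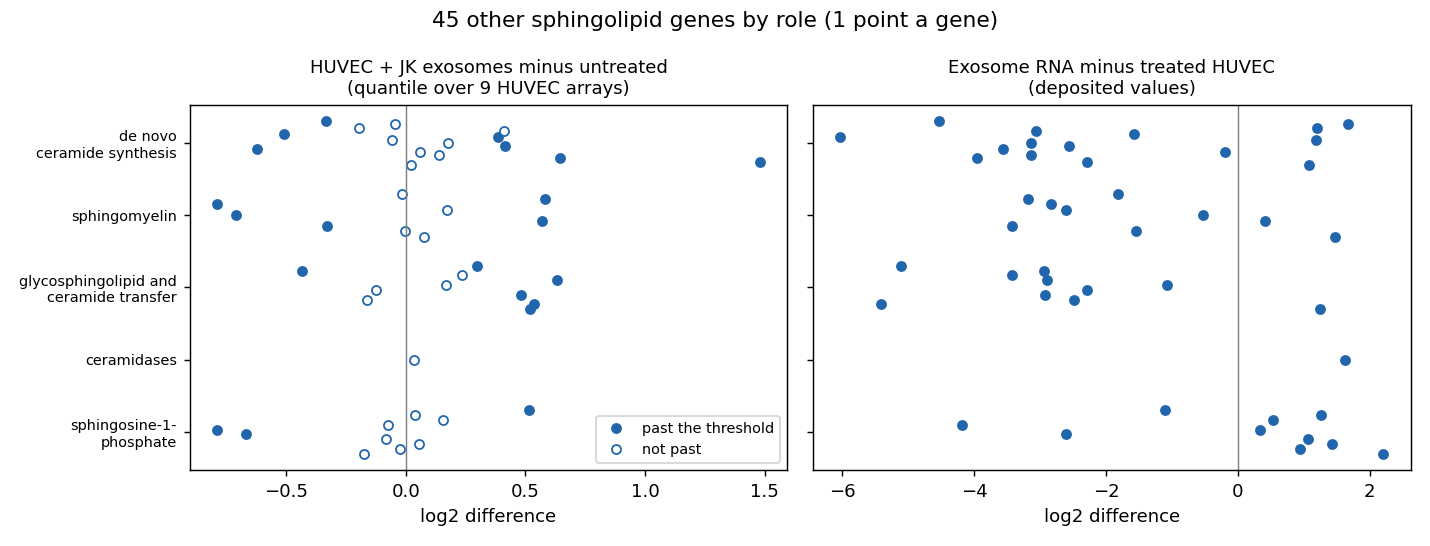
Log2 differences (x axis) of the 45 measured genes of the wider sphingolipid list, 1 point a gene, grouped by role, in JK-treated minus untreated HUVEC on the left (quantile-normalized) and exosome RNA minus treated HUVEC on the right (deposited). Filled points passed the threshold, and on the right 30 genes lie below 0 and 15 above it.

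In order of deposited group means, ACER2 ran from JK-treated and JINB8-treated HUVEC through untreated HUVEC to JINB8 and JK exosome RNA, and the last 2 overlapped. For ACER3, ASAH1, SPHK1, SGPL1, SPNS2, S1PR1 and UGCG untreated HUVEC came first, both treated groups next and exosome RNA last. The treated groups overlapped for ACER3, ASAH1, SPHK1, SGPL1 and SPNS2, and the exosome groups for all 9. For SGPP1 the order after untreated HUVEC was JINB8 exosome RNA (mean 5.97), JK-treated HUVEC (5.94), JK exosome RNA (5.93) and JINB8-treated HUVEC (5.79), and the first 3 of these overlapped their neighbours. These orders include the higher level of the untreated arrays. After quantile normalization over all 15 arrays treated HUVEC came first for ACER2, ACER3, S1PR1 and UGCG, untreated HUVEC for ASAH1, SPHK1 and SGPL1, and exosome RNA for SGPP1 and SPNS2. On that scale untreated HUVEC overlapped both exosome groups for ACER2.

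The genes whose pattern was most like that of ACER2 were found by the root mean square difference of mean-centred log2 values over the 15 arrays, after quantile normalization over all 15. They were CCDC146 (0.16), PDK4, a kinase that inhibits pyruvate dehydrogenase (0.20), POLN, a DNA polymerase (0.23), the glucose transporter SLC2A1 (0.24) and FAM221A (0.25), against a median of 1.20 over all genes. The arrays fall into few groups that share source and level, so such likeness is a description. Of the other members SPHK1 was nearest, at 0.99, and ranked 5830 among all genes.

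**Figure D5:**
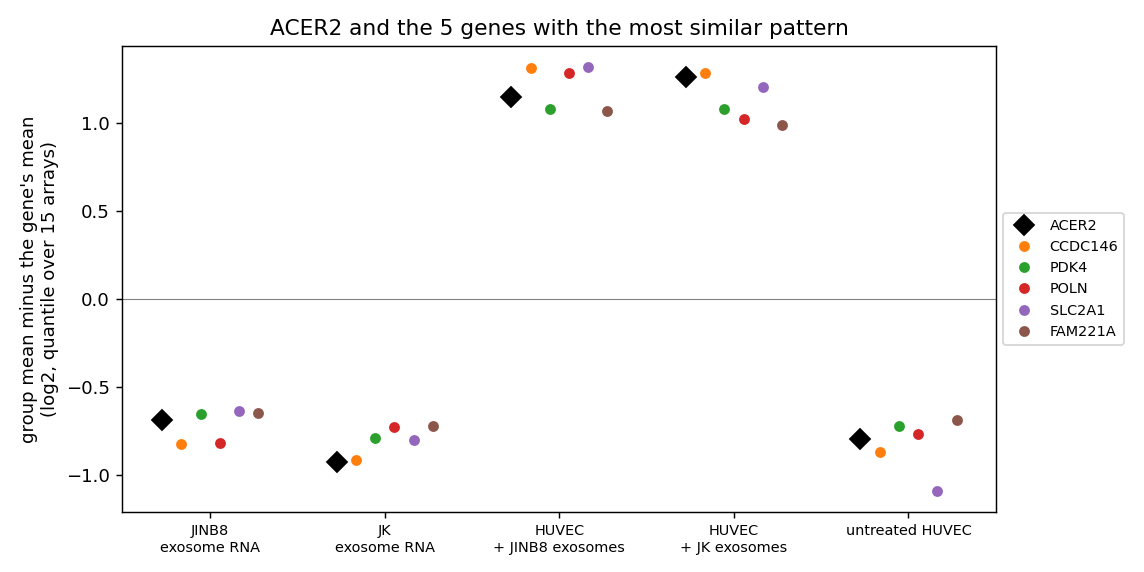
Group means minus each gene's own mean (y axis, log2, quantile-normalized over 15 arrays) for ACER2 and the 5 genes nearest to it, in the 5 groups. All 6 genes are highest in both treated HUVEC groups and lower in exosome RNA and untreated HUVEC.

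The probeset that carries S1PR3 and a second symbol had 7.56, 7.47 and 6.96 in JINB8-treated and 6.88, 6.71 and 7.58 in JK-treated HUVEC, against 8.37, 8.36 and 8.31 in untreated HUVEC, as deposited. It had 5.03 to 5.25 in exosome RNA. Its signal cannot be given to either gene, and it was left out of all counts.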

How the data were processed

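The deposited values are log2 probeset signals, 1 per probeset and array (33297 probesets, 15 arrays, 0 missing). Per the submitters' processing notes the authors used Affymetrix Expression Console, with version and normalization not given in the sources used here. Each labelling took 300 ng of RNA, per the labels' protocols. In the platform annotation 19460 probesets had 1 symbol and 1754 several. A gene with several probesets was read from the brightest on average.

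Groups came from the sample titles. Treated against untreated HUVEC used values quantile-normalized over the 9 HUVEC arrays, and the other comparisons the deposited values (9 HUVEC, 6 exosome or 12 arrays). limma 3.58.1 in R 4.3.3 was fitted to all 18417 genes (lmFit, eBayes, Benjamini-Hochberg, threshold 0.05). An exact two-sided permutation test of 3 against 3 arrays cannot give a p below 0.1. Members and lists were chosen with earlier results of these data known. All members are described, and of the wider list up to 8 passing genes with the largest differences per comparison. A gene so named for 1 comparison with untreated HUVEC has its value in the other beside it. Promoters came from RefSeq (GRCh38.p14). Most same-numbered replicates did not deviate together (correlations -0.45 to 0.35, 1 of 12 over 0.1). The exception was replicate 1 of untreated and of JK-treated HUVEC, at 0.347. Differently numbered arrays deviated together in part between JK-treated and JINB8-treated HUVEC. There JK replicate 3 correlated at 0.31 and 0.23 with JINB8 replicates 1 and 2. JINB8 replicate 3 correlated at 0.285 and 0.33 with JK replicates 1 and 2. The remaining pairs of these groups had -0.45 to -0.13. The reason was not tested. Alternatives were other scalings, fits on fewer or more arrays, the mean of a gene's probesets, leaving out the 40% dimmest genes, a variance trend with robust fitting, the replicate number as a block and leaving out each array.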

Additional observations from a re-analysis of the deposited data

How the results depend on the processing

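The count of members past the threshold stayed within 1.5 times its value under every alternative run, and was 0 throughout for JINB8 against JK in HUVEC, in exosome RNA and for the contrast of these differences. Against untreated HUVEC, the deposited values gave ACER3 -1.08, SPNS2 -1.49, S1PR1 -1.27 and UGCG -0.79 with JINB8 exosomes, and -1.12, -1.37, -1.20 and -0.95 with JK exosomes. Median centring gave ASAH1 0.0995 and 0.10, where it did not pass, and SPNS2 0.34 and 0.41, where it passed. ACER3 with JK exosomes was then 0.67. Genes past the threshold numbered 18286 and 18319 as deposited, and with median centring 7025 higher and 3450 lower (JINB8) and 6462 and 3587 (JK), against 4791 and 4283 and 4829 and 4121 after quantile normalization. For exosome RNA against treated HUVEC quantile normalization gave SPNS2 0.97, and leaving out the 40% dimmest genes left 10578 calls (3011 higher and 7567 lower, against 8337 and 9149), with fewer genes tested. For JINB8 against JK in HUVEC median centring, leaving out dim genes, and a variance trend with robust fitting gave 8, 8 and 23 calls over all genes. For the contrast between vesicle RNA and HUVEC there were 218 calls without dim genes and, with median centring, 83 higher and 36 lower against 126 and 19. In it SPNS2 was -0.0455 with quantile normalization (adjusted p = 0.946) and S1PR1 -0.0141 with median centring (adjusted p = 0.971). Where no construction of the alternative shows it, the cause was not tested.

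Leaving out 1 array at a time gave 0 to 3 calls over all genes for JINB8 against JK in HUVEC. In exosome RNA it gave 54 to 100, lowest without JK replicate 3. For the contrast between them it gave 57 to 338, lowest without JK-treated HUVEC replicate 2 and highest without JK-treated HUVEC replicate 3. Member values turned sign only where they had not passed. In HUVEC SPHK1 ran over -0.0548 to 0.0532 and ACER3 over -0.0135 to 0.0924. In exosome RNA SPHK1 ran over -0.25 to 0.0804, SGPP1 over -0.0058 to 0.12, SGPL1 over -0.0751 to 0.0736, SPNS2 over -0.10 to 0.0233 and S1PR1 over -0.052 to 0.0134. In the contrast ASAH1 ran over -0.12 to 0.0555 and SPHK1 over -0.26 to 0.0757. Replicates were matched by number alone, and the replicate block changed no member's call but gave 70 calls over all genes in the contrast.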
